A study of Mus musculus with 8 samples.

Results

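The granins and the membrane proteins of dense-core secretory granules were followed as a set of 10 genes, namely Chga, Chgb, Scg2, Scg3, Scg5, Vgf, Resp18, Pcsk1n, Ptprn and Ptprn2. Members were the rows of the deposited expression table whose gene name equals 1 of these symbols, and all 10 were found among the 23309 genes of the table. The RNA came from N134, a C57BL/6 mouse line derived from a tumor of pancreatic beta cells. The cells labelled GFP-miR-431 overexpressed microRNA-431 (4 libraries, numbered 5 to 8, here the miR-431 group), and the control cells were labelled GFP-miR-LacZ (4 libraries, numbered 1 to 4, here the miR-LacZ group), so that GFP is part of both labels. All were grown in the same serum-containing medium. How the constructs were delivered, and whether the cells of a group were 1 clone or a pool, is not given in the sources used here. Nor is it given whether each library is a culture of its own, and the p-values therefore stand for the spread among these libraries, which may be technical.

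Granins are acidic soluble proteins that aggregate with calcium at low pH in the trans-Golgi network and fill the dense cores of granules in endocrine cells and neurons. Many of them are cut by convertases into peptides, and chromogranin A, the product of Chga, is a blood marker of neuroendocrine tumors. In beta cells the same granules hold insulin, and the granule membrane carries receptor-like proteins with inactive phosphatase domains, which are autoantigens in autoimmune diabetes.

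The promoter sequences of these genes are shown first because several granin promoters carry a cAMP response element close to the start of transcription, and because genes that share it moved in opposite directions here. The sequences are RefSeq promoters of build GRCm38.p6, from 250 bases before the start of transcription to 50 bases after it, written 5′ to 3′ along the gene's strand. Capitals mark TGACG on either strand, which is the short form of the element, and the full palindrome TGACGTCA where both strands carry it at 1 place.
Chgb (chr2:132781392-132781691, plus strand): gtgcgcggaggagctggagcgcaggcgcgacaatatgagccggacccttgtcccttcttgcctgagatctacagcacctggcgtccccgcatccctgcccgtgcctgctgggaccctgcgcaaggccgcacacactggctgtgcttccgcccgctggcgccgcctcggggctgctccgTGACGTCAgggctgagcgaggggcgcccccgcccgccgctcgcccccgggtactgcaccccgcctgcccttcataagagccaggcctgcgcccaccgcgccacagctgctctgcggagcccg
Scg2 (chr1:79439977-79440276, minus strand): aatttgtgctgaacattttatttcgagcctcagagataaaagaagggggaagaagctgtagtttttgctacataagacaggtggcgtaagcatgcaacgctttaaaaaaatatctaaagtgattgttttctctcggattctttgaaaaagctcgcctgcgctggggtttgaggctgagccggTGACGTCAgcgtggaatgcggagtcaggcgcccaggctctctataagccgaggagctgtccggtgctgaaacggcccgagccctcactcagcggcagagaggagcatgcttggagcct
Chga (chr12:102554691-102554990, plus strand): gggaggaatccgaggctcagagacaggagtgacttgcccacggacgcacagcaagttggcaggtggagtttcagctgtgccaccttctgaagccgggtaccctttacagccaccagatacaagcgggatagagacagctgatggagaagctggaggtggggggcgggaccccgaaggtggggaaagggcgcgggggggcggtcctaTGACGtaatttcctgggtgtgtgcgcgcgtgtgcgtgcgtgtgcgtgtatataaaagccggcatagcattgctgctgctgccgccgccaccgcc
Scg5 (chr2:113829042-113829341, minus strand): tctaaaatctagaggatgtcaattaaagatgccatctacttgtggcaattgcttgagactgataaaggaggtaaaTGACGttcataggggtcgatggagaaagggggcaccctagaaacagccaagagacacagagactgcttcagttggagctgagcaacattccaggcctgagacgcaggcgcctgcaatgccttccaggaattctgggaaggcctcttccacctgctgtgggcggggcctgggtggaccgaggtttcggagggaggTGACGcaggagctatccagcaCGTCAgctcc
Resp18 (chr1:75278366-75278665, minus strand): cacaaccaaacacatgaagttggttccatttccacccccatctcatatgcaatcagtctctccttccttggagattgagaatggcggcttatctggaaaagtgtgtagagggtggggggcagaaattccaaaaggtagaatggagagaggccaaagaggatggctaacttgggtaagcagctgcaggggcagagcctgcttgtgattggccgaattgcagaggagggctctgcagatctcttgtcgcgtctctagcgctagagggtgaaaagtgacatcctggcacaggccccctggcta
Promoters of 9 of the 10 members were in the RefSeq table (2 of them for Ptprn), and Vgf was not matched. The full element TGACGTCA was found in 2 of those 9 genes, Chgb and Scg2, starting 72 and 68 bases before the start of transcription, and in 1.79% of all 32851 promoters of the same length. The short form TGACG was found in 6 of the 9 genes (Chga, Chgb, Ptprn, Scg2, Scg3 and Scg5), and in 20.8% of all promoters. In Chga it starts 44 bases before the start of transcription. No TGACG on either strand lies in the windows of Resp18, Pcsk1n or Ptprn2. These matches describe letters in a window and do not show binding.

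The overexpressed microRNA has the following mature strands in RefSeq (GRCm38.p6, chromosome 12, plus strand), with the seed, bases 2 to 8, in capitals. They are shown because the seed sets which transcripts the microRNA can pair with.
mmu-miR-431-5p: uGUCUUGCaggccgucaugca
mmu-miR-431-3p: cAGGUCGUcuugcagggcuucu
The seed match of the 5p strand, GCAAGAC, was found in the 3′ untranslated region of 0 of the 10 members, against 6.48% of the 11257 tested genes for which a region was available (GENCODE M21 transcripts, the longest region matched by RefSeq accession). The shorter match CAAGAC was likewise found in 0 of 10 members, against 26.2% of those genes. For the 3p strand, ACGACCT was found in 0 of 10 members and 1.43% of genes. The 3′ untranslated regions of the members were 112 (Resp18) to 1307 bases (Pcsk1n) long. A longer region has more room for a match, and the regions of all genes were not matched to the members in length. Nothing is therefore read from 0 of 10 beside the shares over all genes.

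The libraries were compared on FPKM, by its usual definition fragment counts divided by transcript length and by the library's total, which is a level per length. The 75th percentile over all genes was 14.5 to 14.7 FPKM per library, and whether the libraries were also scaled to each other was not tested. Sums over all genes were 521889 to 625005 FPKM per library, and read counts are not given, so the depth behind a value is unknown. Mir431 reached 18114 to 37769 FPKM in the miR-431 libraries and was listed at 0 in the 4 miR-LacZ libraries. Dab2ip, a gene used as a check of the labels, was at 54.5 ± 7.74 FPKM with miR-431, against 73.3 ± 7.76 FPKM with miR-LacZ (SD, n = 4 each), with a log2 fold change of −0.42 (limma adjusted p = 0.0236). Its groups overlapped, as miR-431 7 held 64.2 FPKM and miR-LacZ 4 held 62.7 FPKM. The Dab2ip call ended without libraries 5 and 1 (−0.33, limma adjusted p = 0.108), relative to its neighbours (−0.30, limma adjusted p = 0.117), and when miR-431 5, miR-431 8, miR-LacZ 1 and miR-LacZ 2 were dropped in turn (limma adjusted p = 0.0530 to 0.0686), so it is a weak check. Markers that define beta cells were present. The 9 listed markers, Ins1 and Ins2 among them, summed to 20862 to 33609 FPKM in miR-431 and 25118 to 41136 FPKM in miR-LacZ libraries. Of the 9, 1 rose (Ucn3) and 3 fell (Ins1, Pdx1 and Nkx6-1), where limma called 29.3% of all tested genes. Ins2 was the largest part of the sum, which hides the others. Ins1 was at 389 FPKM with miR-431, against 3332 FPKM with miR-LacZ (log2 fold change −3.07). Ucn3 was at 37.3 FPKM with miR-431, against 1.73 FPKM with miR-LacZ (3.92), and Pdx1 and Nkx6-1 were both at −0.52. Libraries 5 and 1 stood apart. Among genes below 0.1 FPKM, the ratio between a pair of libraries took 1 common value (within 0.02 on the log2 scale) for 19.9% to 24.7% of genes in pairs of the other 6 libraries, for 3.24% to 3.91% in pairs of 5 or 1 with those 6, and for 14.2% between 5 and 1. Values of the member genes are therefore also given for libraries 5 and 1 alone, as a pair without a test, and for the other 6 libraries.

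Most of the 10 genes rose in miR-431 relative to miR-LacZ cells, and Scg2 fell. The limma test was run on the 11807 genes that reached 1 FPKM in 4 or more libraries, and all 10 members passed that filter. Of the 10, 7 rose (Resp18, Chgb, Scg5, Pcsk1n, Ptprn, Scg3 and Ptprn2) and 1 fell (Scg2) at a Benjamini-Hochberg adjusted p below 0.05, while Chga and Vgf did not pass. Across all tested genes 15.4% rose and 13.8% fell, 29.3% in all. The median log2 fold change of the 10 members was 0.58, beside −0.01 for all tested genes. The libraries of the groups did not overlap for 7 members, 6 of them higher and 1 lower in miR-431, where 16.0% and 15.1% of all tested genes were higher and lower without overlap. At least 2-fold changes were called for 3 members (Resp18, Chgb and Scg5), against 3.97% of all tested genes. All 8 called members kept their sign between libraries 5 and 1, and all 8 passed in the other 6 libraries. Both are parts of the libraries that gave the calls, so this is not a replication. These genes were chosen with results of these data known, so the counts describe them and call nothing particular to the set. In bulk RNA, fewer cells that make a transcript and less of it per cell cannot be told apart.

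**Figure D1:**
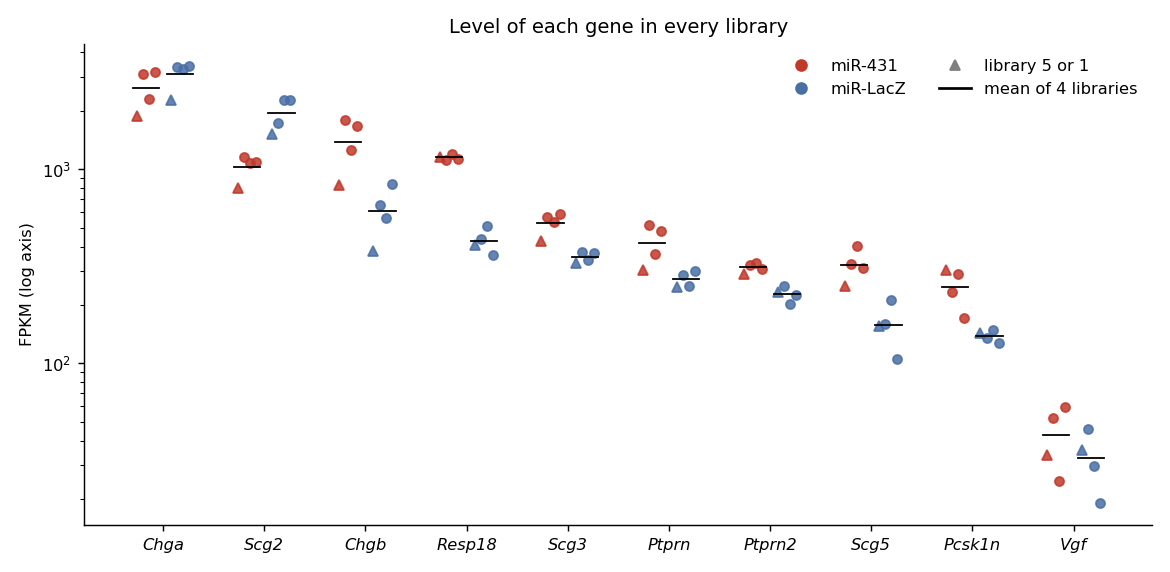
FPKM on a log axis for the 10 genes, ordered by their mean in miR-LacZ, with miR-431 libraries in red on the left and miR-LacZ libraries in blue on the right of each gene. Points are libraries, triangles are library 5 or 1, and black bars are means of 4 libraries. The groups lie apart for all genes but Chga, Chgb and Vgf, and Scg2 is the gene whose 4 miR-431 libraries (805 to 1152 FPKM) lie below all 4 miR-LacZ libraries (1526 to 2286 FPKM).

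Chga, the gene of chromogranin A and the most abundant member in both groups, did not pass the test. Chga (chromosome 12, 103793178 to 103803237, mm9) stood at 1886, 3084, 2308 and 3175 FPKM in miR-431 libraries 5 to 8 in turn, against 2288, 3358, 3291 and 3412 FPKM in miR-LacZ libraries 1 to 4. The groups overlapped, and the lowest value of each group was that of library 5 or 1. Its mean was 2613 ± 622 FPKM with miR-431, against 3087 ± 535 FPKM with miR-LacZ (SD, n = 4 each), with a log2 fold change of −0.25 (SE 0.22, 95% interval −0.75 to 0.24, limma adjusted p = 0.417). The interval holds 0 as well as larger falls than the estimate, so no equality is shown. It was −0.28 between libraries 5 and 1 and −0.25 in the other 6. Chga ranked 13th by mean FPKM among all genes in miR-431 and 10th in miR-LacZ cells.

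The gene of chromogranin B, the second chromogranin of granule cores, rose. Chgb (chromosome 2, 132607013 to 132620808, mm9) stood at 828, 1803, 1250 and 1664 FPKM in miR-431 libraries 5 to 8, against 377, 657, 559 and 839 FPKM in miR-LacZ libraries 1 to 4. The overlap of the groups rests on library 5, whose 828 FPKM lies below the 839 FPKM of library 4, and within each group libraries 5 and 1 were the lowest. The mean was 1386 ± 440.1 FPKM with miR-431, against 608 ± 193 FPKM with miR-LacZ, or 2.28 times as high, with a log2 fold change of 1.18 (SE 0.29, limma adjusted p = 0.0132). It was 1.13 between libraries 5 and 1 and 1.20 in the other 6. By mean FPKM Chgb ranked 26th among all genes in miR-431 and 122nd in miR-LacZ cells. In each library a running median was taken of how far 31 tested genes along the chromosome, Chgb among them, lay from their own means. This median differed by 0.24 between the groups. With it removed from each library, Chgb stood at 0.94 and no longer passed (limma adjusted p = 0.0542).

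The gene of secretogranin II, the precursor of the neuropeptide secretoneurin, fell. Scg2 (chromosome 1, 79431243 to 79436665, mm9) stood at 805, 1152, 1082 and 1093 FPKM in miR-431 libraries 5 to 8, against 1526, 1730, 2276 and 2286 FPKM in miR-LacZ libraries 1 to 4. Every miR-431 library was below every miR-LacZ library. The mean was 1033 ± 155 FPKM with miR-431, against 1954 ± 386 FPKM with miR-LacZ, or 52.8% of the control level, with a log2 fold change of −0.91 (SE 0.18, limma adjusted p = 0.00534). It was −0.92 between libraries 5 and 1 and −0.91 in the other 6. The running median of 31 genes, Scg2 among them, differed by 0.02 between the groups. The 1 other tested gene within 200 kb, Ap1s3, was at a log2 fold change of −0.61 and fell too. Scg2 ranked 47th by mean FPKM in miR-431 and 16th in miR-LacZ cells. It thus carries the same full cAMP response element as Chgb at nearly the same distance from the start of transcription, and moved the other way.

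The gene of secretogranin III, the granin that binds granule membranes, rose to a smaller extent. Its product binds cholesterol-rich membrane and chromogranin A. Scg3 (chromosome 9, 75491172 to 75531863, mm9) stood at 426, 565, 538 and 586 FPKM in miR-431 libraries 5 to 8, against 328, 374, 341 and 370 FPKM in miR-LacZ libraries 1 to 4. Every miR-431 library was above every miR-LacZ library. This was a log2 fold change of 0.57 (SE 0.12, limma adjusted p = 0.00753), or 0.38 between libraries 5 and 1 and 0.64 in the other 6. The running median of 31 genes, Scg3 among them, differed by 0.28 between the groups, and with that median removed Scg3 stood at 0.29 and did not pass (limma adjusted p = 0.127).

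The genes of both proteins that act on the prohormone convertases rose. Scg5 (chromosome 2, 113616469 to 113669248, mm9) encodes the chaperone that keeps the convertase Pcsk2 inactive until it reaches the granule and is needed for its activation. It stood at 251, 324, 401 and 310 FPKM in miR-431 libraries 5 to 8, against 155, 159, 213 and 106 FPKM in miR-LacZ libraries 1 to 4. The groups did not overlap, with a log2 fold change of 1.04 (SE 0.21, limma adjusted p = 0.00480), or 0.69 between libraries 5 and 1 and 1.16 in the other 6. Pcsk1n (chromosome X, 7496947 to 7505733, mm9) encodes proSAAS, a granin-like inhibitor of the convertase Pcsk1. It stood at 301, 232, 289 and 172 FPKM in miR-431 libraries 5 to 8, against 143, 135, 148 and 128 FPKM in miR-LacZ libraries 1 to 4. All miR-431 libraries were above all miR-LacZ libraries, with a log2 fold change of 0.81 (SE 0.17, limma adjusted p = 0.00550), or 1.07 between libraries 5 and 1 and 0.72 in the other 6. The miR-431 libraries differed more among themselves, with a coefficient of variation of 23.8%, against 6.37% in miR-LacZ. Of the 14 other tested genes within 200 kb of Pcsk1n, 2 rose and 1 fell, and their median log2 fold change was −0.03.

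Vgf, a precursor of several secreted peptides that nerve growth factor induces in neurons, was the lowest member and did not pass. Vgf (chromosome 5, 137506164 to 137509221, mm9) stood at 33.8, 52.3, 24.8 and 59.3 FPKM in miR-431 libraries 5 to 8, against 35.9, 46.0, 29.6 and 19.1 FPKM in miR-LacZ libraries 1 to 4. The groups overlapped widely. The log2 fold change was 0.36 (SE 0.30, 95% interval −0.32 to 1.03, limma adjusted p = 0.401), and the sign differed between the pair of 5 and 1 (−0.09) and the other 6 libraries (0.51).

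Resp18 had the largest rise of the 10 genes and, in miR-431 cells, the tightest values. Resp18 encodes a small luminal protein of endocrine secretory cells that resembles the luminal part of the Ptprn protein, and lies at chromosome 1, 75268776 to 75274955 (mm9). It stood at 1163, 1118, 1201 and 1128 FPKM in miR-431 libraries 5 to 8, against 407, 438, 510 and 363 FPKM in miR-LacZ libraries 1 to 4. The groups were far apart, and libraries 5 and 1 did not stand out. The mean was 1153 ± 37.7 FPKM with miR-431, against 429 ± 61.7 FPKM with miR-LacZ, or 2.69 times as high, with a log2 fold change of 1.43 (SE 0.13, limma adjusted p = 5.31e-05). That fold change was 1.51 between libraries 5 and 1 and 1.41 in the other 6. The coefficient of variation was 3.27% in miR-431 and 14.4% in miR-LacZ. By mean FPKM it ranked 37th in miR-431 and 191st in miR-LacZ cells.

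The genes of both receptor-like granule membrane proteins rose. Ptprn (chromosome 1, 75243615 to 75260783, mm9), whose product is also called IA-2, stood at 305, 518, 367 and 482 FPKM in miR-431 libraries 5 to 8, against 247, 284, 252 and 299 FPKM in miR-LacZ libraries 1 to 4. The groups did not overlap, but library 5 (305 FPKM) lay close to the highest control (299 FPKM). This was a log2 fold change of 0.60 (SE 0.17, limma adjusted p = 0.0241), or 0.30 between libraries 5 and 1 and 0.70 in the other 6. It had the largest adjusted p of the 8 called members, and its call did not hold in 4 fits with 1 library fewer: with miR-LacZ 1, miR-LacZ 3, miR-431 6 and miR-431 8 left out in turn, the limma adjusted p was 0.0541, 0.0554, 0.0692 and 0.0686, at log2 fold changes of 0.56, 0.57, 0.48 and 0.52. Ptprn2 (chromosome 12, 117724192 to 118575485, mm9), which encodes phogrin, stood at 290.4, 321, 331 and 306 FPKM in miR-431 libraries 5 to 8, against 234, 250, 202 and 225 FPKM in miR-LacZ libraries 1 to 4. Its groups did not overlap, with a log2 fold change of 0.46 (SE 0.10, limma adjusted p = 0.00793), or 0.31 between libraries 5 and 1 and 0.50 in the other 6.

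**Figure D2:**
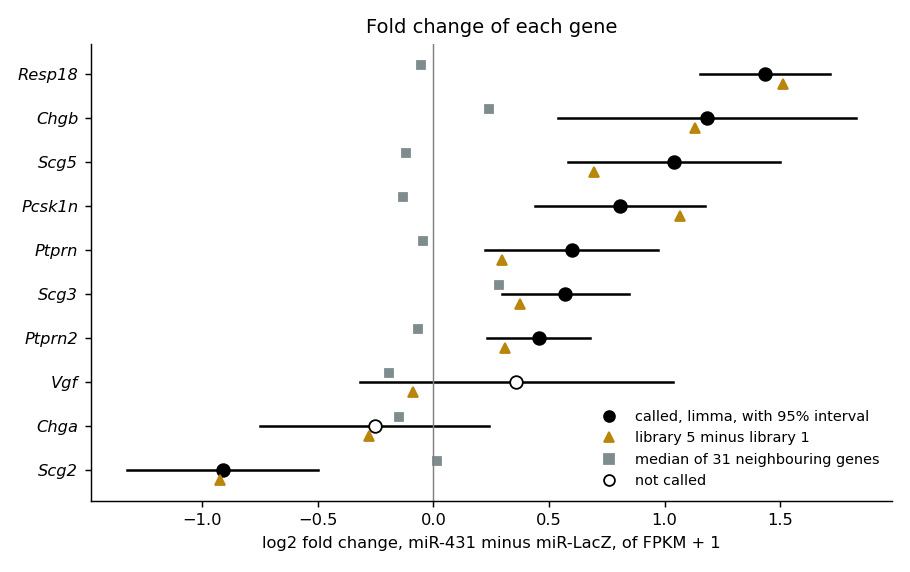
The horizontal axis is the log2 fold change (miR-431 minus miR-LacZ, of FPKM + 1) for the 10 genes, with black circles and 95% intervals from limma, filled where called. Triangles are library 5 minus library 1. Squares are the difference between the groups in the running median of up to 31 genes, the gene itself included. The rises run from 0.46 (Ptprn2) to 1.43 (Resp18), Scg2 is at −0.91, and the squares of Chgb (0.24) and Scg3 (0.28) are the highest.

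Resp18 and Ptprn are neighbours on chromosome 1, on the same strand and 7.99 kb apart, and Scg2 lies 4.16 Mb further along. The counts that follow leave out member genes, so Ptprn is not counted around Resp18, nor Resp18 around Ptprn, although both rose. Of the 15 tested non-member genes within 200 kb of Resp18, 0 rose and 1 fell, with log2 fold changes from −0.47 to 0.28 and a median of −0.16. The corresponding count around Ptprn was 0 up and 1 down of 14, all of them among those 15. Around Chgb, 0 of 4 rose and 0 fell, and around Scg3 2 of 4 rose and 0 fell. No source used here says whether the counting used strand, so reads of overlapping genes cannot be told apart.

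The order of the transcripts by level changed with the group. In miR-431 cells the order by mean FPKM was Chga, Chgb, Resp18, Scg2, Scg3, Ptprn, Scg5, Ptprn2, Pcsk1n and Vgf. In miR-LacZ cells it was Chga, Scg2, Chgb, Resp18, Scg3, Ptprn, Ptprn2, Scg5, Pcsk1n and Vgf. In miR-431 cells the ranges of neighbours in this order were apart between Chga and Chgb, between Scg2 and Scg3 and between Pcsk1n and Vgf, and overlapped for all other neighbours. In miR-LacZ cells they were apart between Chga and Scg2, between Scg2 and Chgb, between Scg3 and Ptprn and between Pcsk1n and Vgf, and overlapped for all others.

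The summed level of the 10 genes differed less than their make-up. They held 1.20% to 1.52% of all FPKM in miR-431 and 1.06% to 1.47% in miR-LacZ libraries, so the groups overlapped. Within that sum, Chga held 32.2% ± 2.81 in miR-431 and 42.4% ± 2.19 in miR-LacZ cells (SD, n = 4 each). Scg2 held 12.9% ± 0.732 in miR-431 and 26.8% ± 2.60 in miR-LacZ cells. Resp18 held 14.7% ± 2.93 in miR-431 and 6.00% ± 1.11 in miR-LacZ cells. Chgb held 16.9% ± 2.89 in miR-431 and 8.25% ± 1.74 in miR-LacZ cells. Each of these 4 shares had ranges that did not overlap between the groups. Shares of 1 sum are bound to each other, so they were not tested.

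**Figure D3:**
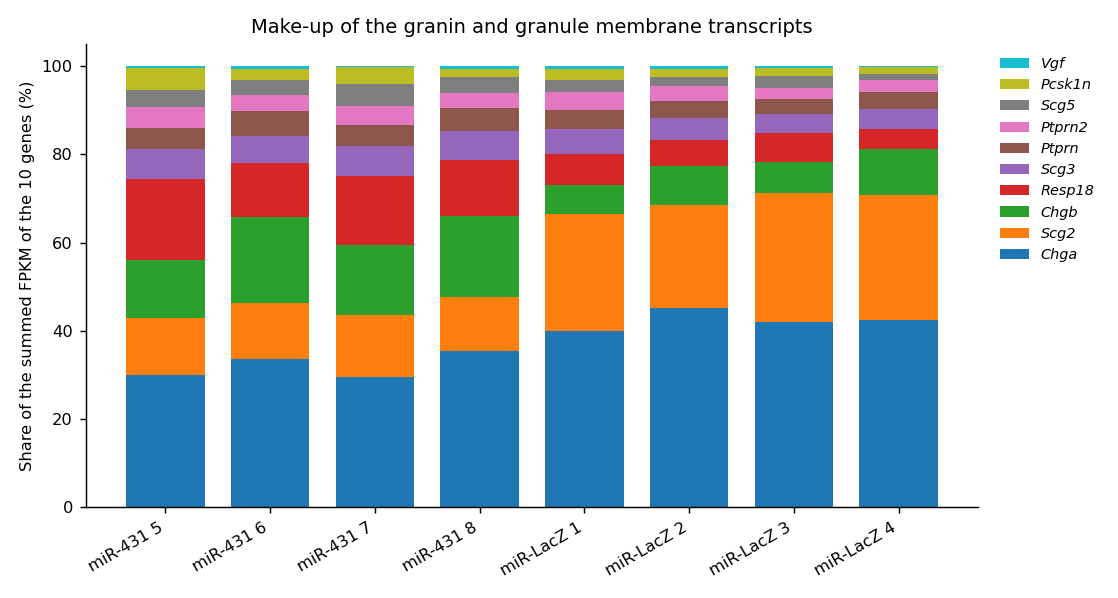
Stacked bars give each gene's share (%) of the summed FPKM of the 10 genes in every library, miR-431 libraries 5 to 8 on the left and miR-LacZ libraries 1 to 4 on the right. Scg2 (orange) takes 12.2% to 13.9% of the sum in miR-431 and 23.3% to 29.1% in miR-LacZ libraries, and Resp18 (red) takes 12.2% to 18.5% in miR-431 and 4.51% to 7.08% in miR-LacZ libraries.

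Ratios within a library, which do not depend on how libraries are scaled, were compared for 4 pairs of genes whose products act together. The ratio of Scg5 to Pcsk2, the chaperone to its convertase, was 0.354, 0.506, 0.541 and 0.512 in miR-431 libraries 5 to 8, against 0.159, 0.193, 0.227 and 0.113 in miR-LacZ libraries 1 to 4. The groups did not overlap, and the mean log2 ratio differed by 1.50 (exact two-sided permutation p = 0.0286, the smallest that 4 against 4 allows, and 0.0571 adjusted over the 4 ratios). Every miR-431 library had more Scg5 and less Pcsk2 than every miR-LacZ library, which fixed this outcome in advance. The test therefore adds nothing to the separate changes of Scg5 and Pcsk2. The ratio of Scg3 to Chga was 0.226, 0.183, 0.233 and 0.185 in miR-431 libraries 5 to 8, against 0.144, 0.111, 0.104 and 0.109 in miR-LacZ libraries 1 to 4, a log2 difference of 0.83 (exact permutation p = 0.0286, adjusted 0.0571). Neither passed 0.05 after adjustment. As no other ratio reached the smallest p, their adjusted p could not be below 0.0571, so the test could not pass them. The ratio of Pcsk1n to Pcsk1 was 6.66, 3.46, 4.92 and 1.92 in miR-431 libraries 5 to 8, against 2.83, 1.89, 2.08 and 1.53 in miR-LacZ libraries 1 to 4, with groups that overlapped (log2 difference 0.92, exact permutation p = 0.0857, adjusted 0.114). The ratio of Ptprn2 to Ptprn was 0.954, 0.620, 0.900 and 0.636 in miR-431 libraries 5 to 8, against 0.947, 0.878, 0.801 and 0.754 in miR-LacZ libraries 1 to 4. Its log2 difference was −0.14 (exact permutation p = 0.486, adjusted 0.486), which does not show that the pair moved alike.

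**Figure D4:**
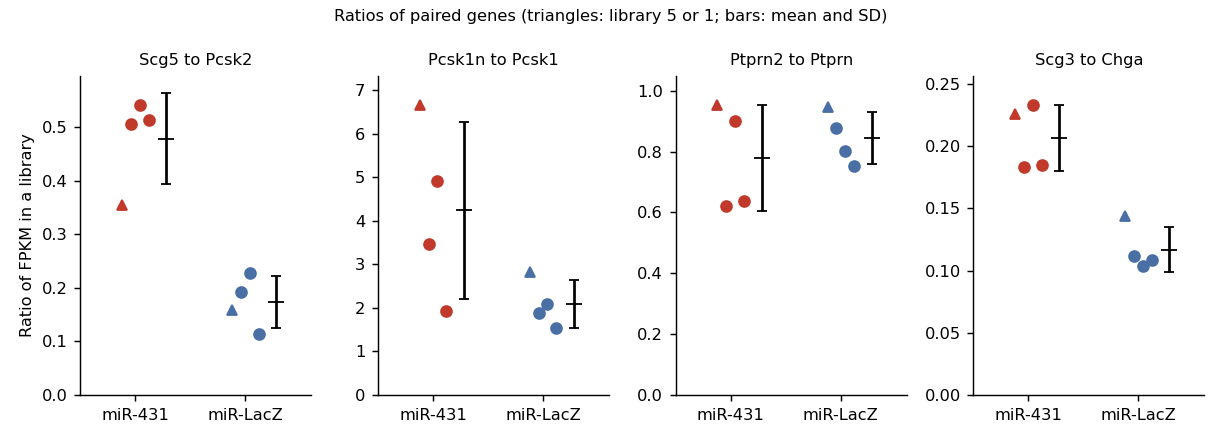
FPKM ratio of 4 gene pairs in every library, miR-431 in red on the left and miR-LacZ in blue on the right of each panel, with the mean and SD of 4 libraries as black bars and triangles for library 5 or 1. Scg5 to Pcsk2 (0.478 ± 0.0843 in miR-431, 0.173 ± 0.0486 in miR-LacZ) and Scg3 to Chga (0.207 ± 0.0266 in miR-431, 0.117 ± 0.0181 in miR-LacZ) are the pairs whose groups do not overlap.

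Of 10 tested enzymes listed for prohormone processing, not all granule enzymes, 2 rose and 1 fell, and the median log2 fold change was 0.07. This share, like those of the other 4 lists of granule genes that follow, is to be read beside the 29.3% called (15.4% up and 13.8% down) over all tested genes, and nothing is read from it about the lists. Under the 12 other settings 1 to 5 of these enzymes rose and 0 to 1 fell. Qpct, which closes N-terminal glutamine into pyroglutamate, was at 6.25 ± 1.05 FPKM with miR-431, against 0.219 ± 0.119 FPKM with miR-LacZ (log2 fold change 2.57, on a scale that understates changes at low levels). Qpct reached 1 FPKM in the miR-431 libraries alone, so it entered the test through the group where it was high, and its call is descriptive only. With the filter at 5 FPKM Qpct was not tested, and 1 of the enzymes rose. Pam, the enzyme that amidates peptides, was at 85.3 ± 10.3 FPKM with miR-431, against 47.6 ± 5.23 FPKM with miR-LacZ (0.83). Pcsk2 was at 674 ± 61.8 FPKM with miR-431, against 920 ± 63.4 FPKM with miR-LacZ (−0.45, limma adjusted p = 0.0187), and its call ended with quantile normalization (−0.39, limma adjusted p = 0.0621), in the fit without libraries 5 and 1 (−0.45, limma adjusted p = 0.0526), and without miR-431 6 or miR-431 8 (limma adjusted p = 0.0636 and 0.0645). Relative to its neighbours Pcsk2 stood at −0.19 and did not pass. Pcsk1 was at 65.2 ± 18.7 FPKM with miR-431, against 69.2 ± 13.6 FPKM with miR-LacZ (−0.10, limma adjusted p = 0.738).

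Of 18 tested genes of granule biogenesis and sorting, 3 rose and 2 fell (median 0.03), or 2 to 4 and 0 to 3 under the other settings. Baiap3, a vesicle trafficking protein of the Munc family, was at 41.5 ± 5.15 FPKM with miR-431, against 17.5 ± 5.70 FPKM with miR-LacZ (log2 fold change 1.26), and Ica1, an islet autoantigen that acts in granule maturation, rose by 0.48. Vps53, a subunit of an endosomal tethering complex, fell by 0.46, and Hid1, a Golgi protein needed for dense-core granules, fell by 0.40. Relative to the median of their neighbours, Ica1, Vps53 and Hid1 stood at 0.19, −0.23 and −0.16 and did not pass. Of a list of other genes linked to granules, whose products, such as that of Mt3, are not all granule residents, 16 of 18 were tested. Of these, 3 rose and 2 fell (median 0.01). Mt3, a zinc-binding metallothionein, was at 55.0 ± 27.8 FPKM with miR-431, against 185 ± 64.1 FPKM with miR-LacZ (−1.79), and Cyb561, an electron carrier of the granule membrane, at 8.23 ± 0.830 FPKM with miR-431, against 15.4 ± 1.42 FPKM with miR-LacZ (−0.83). Rab27a, a GTPase of granule docking, rose by 0.59, and Vamp2, the granule SNARE, by 0.40. The Vamp2 call ended when miR-LacZ 2, miR-431 5 and miR-431 8 were dropped in turn (limma adjusted p of at most 0.0516).

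Of 12 tested genes of granule acidification, 1 rose and 1 fell (median 0.01), or 1 to 3 and 0 to 2 under the other settings. Atp6ap2, an accessory subunit of the proton pump, was at 242 ± 27.2 FPKM with miR-431, against 414 ± 93.8 FPKM with miR-LacZ (log2 fold change −0.75), a value that became −0.35 and did not pass once its neighbours' median was taken off, and the pump subunit gene Atp6v0a1 rose by 0.40. Leaving out any 1 of miR-LacZ 3, miR-LacZ 4, miR-431 6 and miR-431 8 ended the Atp6v0a1 call.

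Of 15 tested regulators of granule genes, 3 rose and 1 fell (median 0.09), or 2 to 4 and 0 to 4 under the other settings. Crem, a transcription factor that binds cAMP response elements and has activating and repressing forms, was at 6.31 ± 2.24 FPKM with miR-431, against 2.86 ± 0.601 FPKM with miR-LacZ (log2 fold change 0.89, limma adjusted p = 0.00771). The islet transcription factor genes Rfx6 and Nkx2-2 rose by 0.56 and 0.31, and Insm1 fell by 0.38 (limma adjusted p = 0.0348). That Insm1 call ended in 6 of the 8 fits with 1 library fewer (limma adjusted p = 0.0514 to 0.103), all but those that dropped miR-431 5 or miR-431 7, and relative to its neighbours Insm1 stood at −0.05. Rest, the repressor of neuronal and neuroendocrine genes, was named after its values were seen: it was below the level tested, at 0.0376 ± 0.00685 FPKM with miR-431, against 0.216 ± 0.185 FPKM with miR-LacZ.

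**Figure D5:**
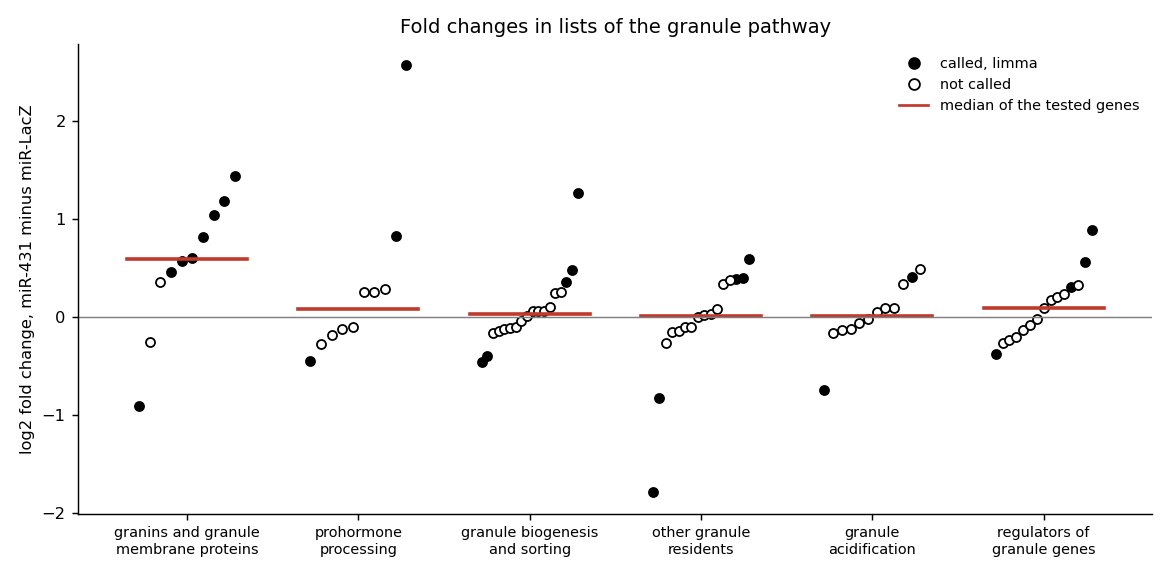
log2 fold changes (miR-431 minus miR-LacZ) of the tested genes of 6 lists, filled where called by limma, with the median of each list as a red line. The median is 0.58 for the granins and granule membrane proteins and 0.01 to 0.09 for the other 5 lists.

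The tested genes with the profile over the 8 libraries most like that of Resp18 were Tmem42, Gabbr1 and Camk1g, by the mean absolute difference of log2(FPKM + 1) after each gene was centred on its own mean (0.0506, 0.0939 and 0.0993). Their log2 fold changes were 1.48, 1.49 and 1.43, beside 1.43 for Resp18, a likeness that the matching itself brings about. Tmem42 was at 12.6 FPKM with miR-431, against 3.90 FPKM with miR-LacZ. Gabbr1 was at 3.13 FPKM with miR-431, against 0.478 FPKM with miR-LacZ, and Camk1g at 5.76 FPKM with miR-431, against 1.51 FPKM with miR-LacZ. Gabbr1 reached 1 FPKM in the miR-431 libraries alone, so it entered the tested genes through the group where it was high and is descriptive only. The scale of FPKM + 1 understates changes at such low levels, so the factors in FPKM are not alike. The nearest member to Resp18 was Scg5, at a difference of 0.243. For Scg2 the nearest genes included Daam1 and Hdac8 (0.0853 and 0.0988), with log2 fold changes of −0.76 and −0.88. The nearest member to Scg2 was Chga, at 0.329.

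Markers of other islet cells, which also make granins, moved with the group. Of 10 listed markers 6 were tested, of which 3 rose (Irx1, Irx2 and Ttr) and 0 fell, and the 10 summed to 805 to 1637 FPKM in miR-431 and 590.05 to 920.4 FPKM in miR-LacZ libraries. The hormone genes that define those cells did not pass or were too low to test: Gcg was at 98.6 ± 67.6 FPKM with miR-431, against 107 ± 44.1 FPKM with miR-LacZ, Ppy was at 18.6 ± 11.8 FPKM with miR-431, against 5.54 ± 3.63 FPKM with miR-LacZ (limma adjusted p = 0.0655), and Sst and Ghrl were too low to test. The part of such cells in the values above was not tested. Acinar, fibroblast, endothelial and leukocyte markers each summed to at most 3.20 FPKM in any library. The duct list summed to 89.8 to 197 FPKM in miR-431 and 78.5 to 133 FPKM in miR-LacZ libraries, nearly all of it Krt7, while Krt19, Cftr and Spp1 were below the level tested.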

How the data were processed

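RNA sequencing was done on 8 libraries of N134 cells, 4 of each group. Per the submitters' processing notes, which give neither role nor order, the tools were TopHat2 2.0.11, Cufflinks 2.1.1, cutadapt and CASAVA 1.8.2, on mm9. FPKM per gene, as deposited by the authors, filled 1 table of 23309 genes, of which 4406 were at 0 in every library. The 11807 genes that reached 1 FPKM in 4 or more libraries were tested as log2(FPKM + 1) by limma 3.58.1 (R 4.3.3), using a mean-variance trend, no covariate and Benjamini-Hochberg adjustment over all of them. The fit was tested on simulated data. FPKM keeps no counts, so no count test, counting interval or depth is given, and the 4 libraries of a group limit the precision. Ratios of FPKM were tested by exact permutation over libraries. The members, gene lists, ratios and alternatives were chosen with earlier results of these data known. The genes named are the 10 members, up to 4 called genes with the largest change in each pathway list, genes used in ratios, and the 3 genes most like the member with the largest rise and the largest fall in profile; Mir431 and Dab2ip check the labels, and Rest and the cell type markers are named beyond that rule. Some items that these rules name are not reported here. Alternatives changed the pseudocount, level filter, scaling, trend, library weights, batch term and neighbouring genes, and left out libraries. The 3′ untranslated regions come from GENCODE M21 and promoters from RefSeq, both on GRCm38, and were used for sequence only, while loci are those of the table in mm9. Tables and figures were made with Python 3.11.15, pandas 2.3.3, numpy 2.4.6 and matplotlib 3.10.9.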

Additional observations from a re-analysis of the deposited data

Results flagged for a closer look

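Chga in the miR-LacZ group was marked because 1 of its 4 libraries was far from the others. Library miR-LacZ 1 held 2288 FPKM, against 3291 to 3412 FPKM in miR-LacZ 2, 3 and 4, so that its gap to the nearest library was 0.893 of the group's range, above Dixon's 95% critical value for 4 samples. Of 28 groups of 4 values tested in this way (10 genes and 4 ratios in both groups), 1 was marked, and chance marks about 1 in 20. Without miR-LacZ 1 the log2 fold change of Chga was −0.39 and did not pass (limma adjusted p = 0.237).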

How the results depend on the processing

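The 10 members were recomputed under 20 alternatives each, 12 other settings and 8 that left out 1 library. Of these 200 values, 194 kept their direction and their side of the threshold, 6 kept the direction and lost the call (Chgb and Scg3 with the median of neighbouring genes removed, Ptprn in 4 fits with 1 library fewer), and 0 changed sign. The number of members that rose was 5 to 7 in the 12 settings and 6 to 7 with 1 library fewer, and 1 fell in each of them. Over all genes, 1359 to 1765 rose and 1121 to 1585 fell with 1 library fewer. With library weights 2858 rose and 2987 fell, and 1050 fell once the neighbouring genes' median was taken off; the cause was not tested. Pcsk1, which did not pass in any setting, changed sign with library weights (0.015) and without miR-431 5 (0.055), and ranged from −0.27 to 0.055 with 1 library fewer. With 1 library fewer, the log2 difference of the ratios ranged from 1.31 to 1.64 (Scg5 to Pcsk2) and 0.77 to 0.93 (Scg3 to Chga). It ranged from 0.65 to 1.25 (Pcsk1n to Pcsk1) and −0.25 to −0.04 (Ptprn2 to Ptprn). The first 3 passed after adjustment without miR-431 8 (1.46, 0.88 and 1.25, adjusted exact permutation p = 0.0381). There Pcsk1n to Pcsk1 also reached the smallest exact permutation p, 0.0286, which by itself lowers the adjusted p of the ratios already at it. That pass therefore adds nothing for Scg5 to Pcsk2 or Scg3 to Chga. In the 6 libraries other than 1 and 5 the log2 differences were 1.61, 0.88, 0.81 and −0.19, where the smallest p that 3 against 3 allows is 0.1. No paired analysis was possible because the labels number the libraries 1 to 4 in one group and 5 to 8 in the other. The depth behind each value is unknown, and Vgf and Chga are the members whose 95% intervals include 0.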
